A study of Mus musculus with 4 samples.

Results

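In order to examine the RNA of LSD1 and of the corepressor proteins that work with it, the 9 genes Kdm1a, Kdm1b, Rcor1, Rcor2, Rcor3, Hdac1, Hdac2, Phf21a and Hmg20b were taken by name from the deposited table, which holds 18674 gene names. All 9 were present, in 13 rows, since Phf21a and Hmg20b have 3 transcript rows each, and the value of a name is the mean of its rows. The RNA came from the lumbar spinal cord of WT and G93A mice that received vehicle or spermidine (SD), with 4 libraries in all and 1 for each condition, named here WT vehicle and WT + SD, then G93A vehicle and G93A + SD. G93A mice carry a mutant human SOD1 transgene and belong to the H1 high-expresser strain, bred from transgenic males and females of a B6/SJLF1 background, and the promoter that drives the transgene is not given in the sources used here. For sequencing the methods give 100 days of age and 30 days of dosing, with PBS as the vehicle, while other sections of the methods name saline. How many animals stand behind a library is not stated. With 1 library per condition the spread between animals is unknown. The conditions were compared as ratios between 2 libraries and by the order of the 4 libraries, and no test was made, since one that pools vehicle and SD libraries of a genotype would count differently treated mice as replicates.

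LSD1, the product of Kdm1a, is a flavin-dependent enzyme that removes methyl groups from dimethylated and monomethylated lysine 4 of histone H3 and so takes away a mark of active promoters and enhancers. On nucleosomes it needs CoREST, the product of Rcor1. CoREST holds LSD1 next to the histone deacetylases HDAC1 and HDAC2, so that the same complex removes acetyl and methyl groups. Rcor2 and Rcor3 encode related proteins that need not act in the same way. PHF21A (BHC80) binds the unmethylated histone tail that LSD1 leaves behind, and HMG20B (BRAF35) is a DNA-bending subunit. The complex is best known in the nervous system for keeping neuronal genes silent in other cells through the repressor REST, and it was measured here because the study asked about LSD1 in this model and gave SD, a natural polyamine, to modulate it.

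The promoters of Kdm1a, Kdm1b and Rcor2 are shown because they belong to LSD1 itself, to its closest relative and to the member that differed most between the genotypes with vehicle. The sequences are those of RefSeq, and the window searched is the 250 bases before the RefSeq start in GRCm38.p6. Each run below is the stretch of it outside the gene as GENCODE M21 draws it, all 250 bases for Kdm1a and Kdm1b and the first 181 for Rcor2, and capitals mark GGGCGG, the GC box, or its reverse complement.
Kdm1a, chr4:136602724-136602973, minus strand: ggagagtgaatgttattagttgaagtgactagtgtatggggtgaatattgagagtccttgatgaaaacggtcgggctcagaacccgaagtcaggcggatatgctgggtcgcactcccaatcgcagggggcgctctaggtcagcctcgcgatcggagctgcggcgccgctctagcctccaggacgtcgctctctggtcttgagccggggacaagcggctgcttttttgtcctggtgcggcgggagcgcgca
Kdm1b, chr13:47043249-47043498, plus strand: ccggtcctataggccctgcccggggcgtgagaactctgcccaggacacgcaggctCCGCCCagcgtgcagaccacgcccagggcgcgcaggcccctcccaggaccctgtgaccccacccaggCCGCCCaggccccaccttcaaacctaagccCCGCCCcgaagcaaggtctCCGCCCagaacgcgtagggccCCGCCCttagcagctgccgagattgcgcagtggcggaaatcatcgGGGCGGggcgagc
Rcor2, chr19:7267144-7267324, plus strand: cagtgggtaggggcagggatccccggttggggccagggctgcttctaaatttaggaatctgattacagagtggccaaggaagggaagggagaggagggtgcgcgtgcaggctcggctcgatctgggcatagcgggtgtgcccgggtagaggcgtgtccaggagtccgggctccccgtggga
The Kdm1b promoter holds 6 GC boxes, that of Rcor2 holds 1, in the stretch not shown, and that of Kdm1a holds 0, whereas 32.7% of 32851 promoters of the same length hold at least 1 on either strand (overlapping matches counted separately). CpG dinucleotides number 21 before Kdm1a, 22 before Kdm1b and 17 before Rcor2, against a median of 6 over all promoters. In RefSeq, 8 of the 9 members matched a promoter by symbol, in 11 sequences. Of other motifs searched on both strands in these 11, CCAAT is found before Kdm1a, Rcor1 and Hmg20b (33.8% of all promoters), CANNTG before Kdm1b and Rcor2 and before the second start of Phf21a (66.2%), and neither CCGGAAG (6.91%) nor TTCAGCACC, the left part of the REST element (0.301%), is found in any of them. A match is a string of letters and not a site known to be bound.

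The table's header names no unit, and its values were read as RPKM, reads scaled to the length of the transcript and to the size of the library, so that levels can be set side by side between genes. The depth, estimated from the commonest low value times transcript length, was between 3.68e+07 and 3.86e+07 sequenced fragments per library, where a fragment may be a read or a read pair, since the sources used here do not say which. In each library between 79 and 97 of the 4000 lowest nonzero products were at that commonest one. Markers of motor neurons and of all neurons, astrocytes and oligodendrocytes were present in every library, and none was listed at 0. Several marker lists differed between the genotypes. In all, 10 microglial markers summed to 88.6 RPKM in WT vehicle and 80.8 in WT + SD, against 478 in G93A vehicle and 479 in G93A + SD, with 10 of 10 higher in both G93A libraries than in both WT libraries. Both G93A libraries were above both WT libraries for 43.7% of the names with a mean of at least 1 RPKM. For astrocytes, 6 markers summed to 1332, 1272, 3301 and 3830 RPKM in the same order, of which Gfap made up 441, 386, 2269 and 2707 RPKM. Of these 6, 4 were higher in both G93A libraries, while S100b was lower in both (465 and 469 RPKM in WT, 411 and 396 in G93A) and Slc1a2 overlapped. The 4 markers of dividing cells summed to 1.22, 1.23, 7.78 and 7.79 RPKM. In the other direction, 6 markers of all neurons summed to 1988, 1989, 1320 and 1144 RPKM, 6 motor neuron markers to 79.1, 71.9, 60.3 and 44.2 RPKM, and 6 oligodendrocyte markers to 8814, 9067, 7172 and 6573 RPKM. All 6 neuronal markers were lower in both G93A libraries, as were 5 of 6 motor neuron markers (Isl1 was higher in both) and 5 of 6 oligodendrocyte markers (Mag overlapped). Both G93A libraries were below both WT libraries for 32.6% of the names with a mean of at least 1 RPKM. Endothelial markers, 4 in number, summed to 29.4, 26.9, 27.7 and 20.98 RPKM, and 3 of them were lower in both G93A libraries (Cldn5 overlapped). In RNA from whole tissue, fewer cells of a type and less RNA per cell cannot be told apart, and the part of these shifts in the results below was not tested.

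Hdac2 had the highest level of the 9 members, with a mean of 30.5 RPKM over the libraries, and Kdm1a followed with 16.4 RPKM. Hmg20b (5.07 RPKM), Phf21a (4.80), Rcor1 (4.22) and Rcor3 (4.18) formed a middle group, and Kdm1b (3.19), Rcor2 (1.95) and Hdac1 (1.41) were the lowest. Hdac2 lies above 90.1% and Kdm1a above 80.0% of all 18674 names by mean level, while Hdac1 lies above 33.8%. The order of Hdac2, Kdm1a and the middle group held in every library without overlap. Within the middle group the ranges of neighbours over the 4 libraries overlap. The ranges of Rcor2 and Hdac1 also overlap, although Rcor2 was above Hdac1 in each of the 4 libraries.

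**Figure D1:**
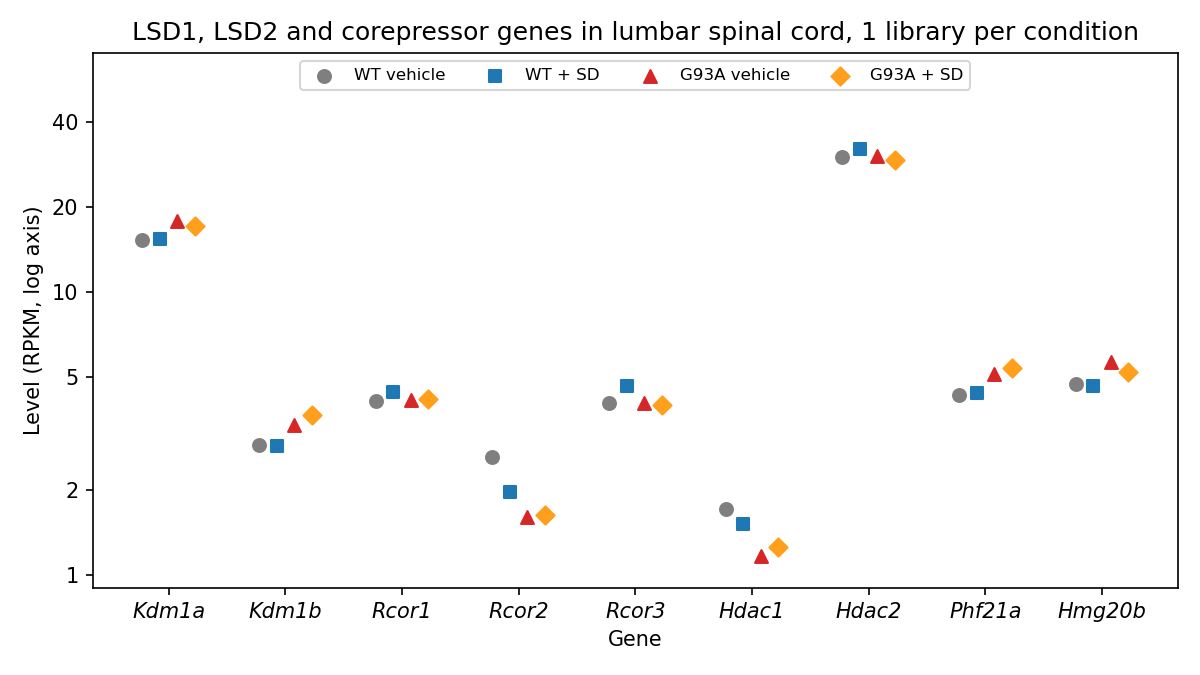
Level of each member in RPKM (log axis) in the 4 libraries, 1 point per library. Kdm1a, Kdm1b, Phf21a and Hmg20b have both G93A points above both WT points, Rcor2, Rcor3 and Hdac1 have both below (for Rcor3 by a gap too small to see between the vehicle libraries), and no other member reaches the level of Hdac2 (29.3 to 32.1 RPKM).

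Kdm1a, which encodes LSD1, had 15.3 RPKM in WT vehicle and 15.4 in WT + SD, against 17.8 in G93A vehicle and 17.1 in G93A + SD. Both G93A libraries lie above both WT libraries, and within a genotype the libraries with and without SD lie close together. Kdm1a was thus 1.17-fold higher in G93A than in WT with vehicle and 1.11-fold higher with SD (log2 ratios of 0.22 and 0.15), while SD against vehicle gave log2 ratios of -0.054 in G93A and 0.013 in WT. None of these reaches 1.5-fold. Among the 12987 names with a mean of at least 1 RPKM, 68.2% had a lower G93A against WT ratio with vehicle and 60.4% with SD. Median-ratio scaling lowered the log2 ratios of Kdm1a in G93A against WT to 0.16 with vehicle and 0.088 with SD. By the depth estimate, the WT values rest on 1690 and 1772 fragments (vehicle, SD) and the G93A values on 2034 and 1990. In GRCm38 the gene spans positions 136550540 to 136602723 of chromosome 4, minus strand, and the transcript of its row is 3008 bases long, in 19 exons. Its span overlaps that of Luzp1 on the opposite strand, but 0 of the exon bases are shared, and 0 of the 2956 windows of 53 bases (the read length) in the transcript occur in a transcript of another gene. Luzp1 had 32.6 RPKM in WT vehicle and 35.6 in WT + SD, against 21.8 in G93A vehicle and 18.0 in G93A + SD, so it was lower where Kdm1a was higher.

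The names whose pattern over the 4 libraries is nearest to that of Kdm1a, by the distance between centred log2 values among 8846 other names with a mean of at least 5 RPKM, are Cep63 (distance 0.015), Usp21 (0.015) and Exosc10 (0.017). A distance below 0.1 was found for 543 names, so this pattern is a common one. Among the members, Hmg20b (0.057) and Phf21a (0.12) are the nearest to Kdm1a, and 111 and 830 of those names are nearer than they are. Rcor2 (0.74) and Hdac1 (0.62) are the farthest.

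Kdm1b, which encodes LSD2, the other histone demethylase of this family, had 2.87 RPKM in WT vehicle and 2.85 in WT + SD, against 3.39 in G93A vehicle and 3.67 in G93A + SD. Here too both G93A libraries are above both WT libraries, and the ratio was 1.18-fold with vehicle and 1.28-fold with SD. LSD2 does not bind CoREST and acts mainly in transcribed gene bodies. Kdm1a was between 4.67 and 5.40 times the level of Kdm1b in the 4 libraries, with the lowest ratio in G93A + SD. Kdm1b spans positions 47043499 to 47085279 of chromosome 13, plus strand, and shares 505 of its 4987 exon bases with Dek on the opposite strand. Dek had 19.6 RPKM in WT vehicle and 20.2 in WT + SD, against 26.1 in G93A vehicle and 29.4 in G93A + SD, so it too was higher in both G93A libraries. Whether strand was used in counting is not stated, so reads of Dek in the shared stretch could count for Kdm1b, and their part in its value was not tested.

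Of the CoREST scaffolds, Rcor2 was lower in G93A while Rcor1 overlapped between the genotypes. Rcor2 had 2.60 RPKM in WT vehicle and 1.97 in WT + SD, against 1.60 in G93A vehicle and 1.63 in G93A + SD. WT vehicle is the highest library, WT + SD is the next, and the G93A libraries are the lowest and lie close together. Rcor2 was therefore 1.63-fold lower in G93A vehicle than in WT vehicle (log2 ratio -0.70) and 1.21-fold lower in G93A + SD than in WT + SD (-0.27). WT + SD was itself 1.32-fold lower than WT vehicle (log2 ratio -0.40), so the libraries of WT mice differ by more than those of the SD-treated genotypes. By the depth estimate these are 271 and 212 fragments in WT (vehicle, SD) and 172 and 178 in G93A. With 1 RPKM added to both libraries the ratio of G93A vehicle against WT vehicle no longer reaches 1.5-fold (log2 ratio -0.47). Rcor2, a CoREST gene best known from embryonic stem cells and neural progenitors, spans positions 7267325 to 7275225 of chromosome 19, plus strand, where GENCODE M21 has no overlapping gene, and 0 of its 2771 windows occur elsewhere. The neuronal markers above were lower in the same G93A libraries, and their part in the Rcor2 value was not tested.

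Rcor1, the CoREST protein first purified with LSD1, had 4.12 RPKM in WT vehicle and 4.41 in WT + SD, against 4.16 in G93A vehicle and 4.20 in G93A + SD. The genotypes overlap, and the log2 ratio of G93A against WT was 0.013 with vehicle and -0.072 with SD. After median-ratio scaling of the libraries, the first of these turned to -0.051. The depth estimate gives 413 and 459 fragments in WT (vehicle, SD) and 430 and 441 in G93A. Rcor1 spans positions 111039351 to 111115901 of chromosome 12, plus strand, in 12 exons. Rcor3 had 4.05 RPKM in WT vehicle and 4.65 in WT + SD, against 4.05 in G93A vehicle and 3.97 in G93A + SD. WT + SD stands above the other libraries, which lie between 3.97 and 4.05 RPKM. Rcor3 was 1.17-fold lower in G93A + SD than in WT + SD and 1.15-fold higher in WT + SD than in WT vehicle. Rcor3 spans positions 192098546 to 192138062 of chromosome 1, minus strand, in 10 exons, and the depth estimate gives between 559 and 667 fragments per library. Of its 3696 windows, 623 (16.9%) are shared with the antisense genes Gm26879 and Gm10516. Together the Rcor genes summed to 10.8 RPKM in WT vehicle and 11.0 in WT + SD, against 9.81 in G93A vehicle and 9.80 in G93A + SD. Rcor2 made up 24.1% of this sum in WT vehicle and 17.8% in WT + SD, against 16.3% in G93A vehicle and 16.6% in G93A + SD. The level of Kdm1a relative to the Rcor sum was 1.42 in WT vehicle and 1.40 in WT + SD, against 1.81 in G93A vehicle and 1.75 in G93A + SD, so that the ratio was higher in both G93A libraries. The sum weighs the Rcor genes alike, and whether their proteins act alike was not tested. Kdm1a was higher in G93A in both comparisons. Rcor2 was the Rcor gene with the largest gap in RPKM between the vehicle libraries, and Rcor3 the one with the largest gap between the SD libraries.

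**Figure D2:**
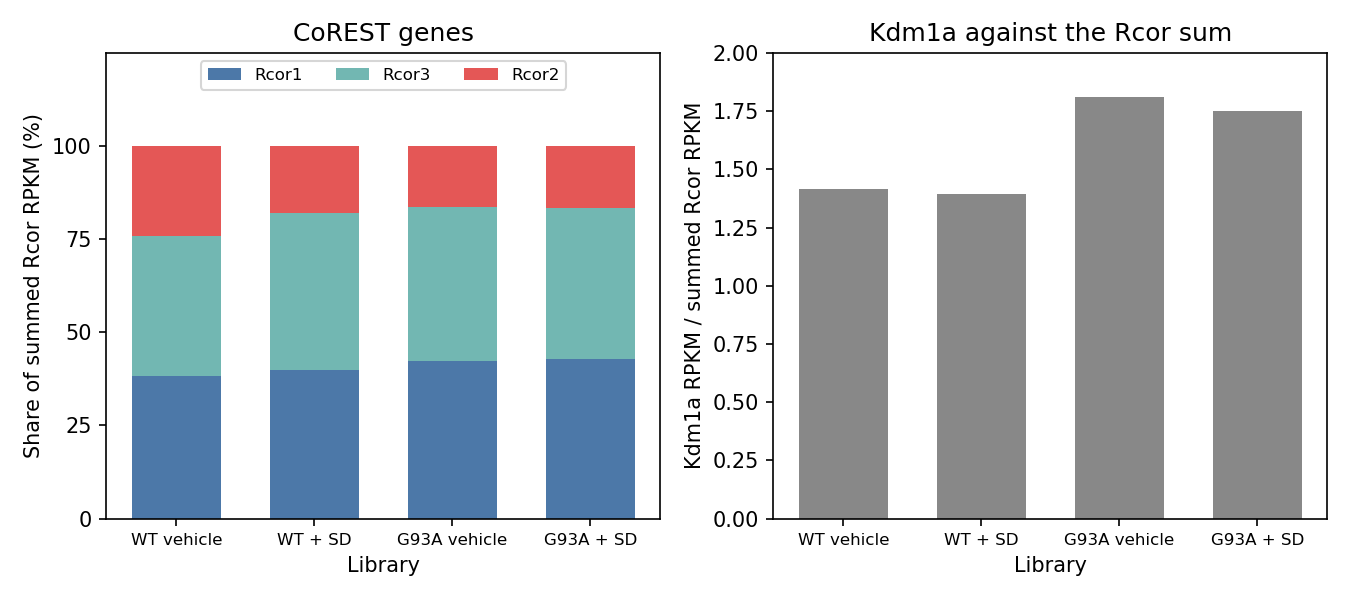
Left, share of Rcor1, Rcor3 and Rcor2 in their summed RPKM (%) in each of the 4 libraries, and right, Kdm1a RPKM divided by the summed Rcor RPKM, with 1 library per bar and no error. The Rcor2 share is 24.1% in WT vehicle and 16.3% to 17.8% in the other libraries, and the ratio is 1.40 to 1.42 in WT and 1.75 to 1.81 in G93A.

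The deacetylases were far apart in level. Hdac2 had 30.1 RPKM in WT vehicle and 32.1 in WT + SD, against 30.3 in G93A vehicle and 29.3 in G93A + SD. The genotypes overlap, and the log2 ratio of G93A against WT was 0.0097 with vehicle, which median-ratio scaling turned to -0.054, and -0.13 with SD. Hdac1 had 1.70 RPKM in WT vehicle and 1.51 in WT + SD, against 1.16 in G93A vehicle and 1.26 in G93A + SD. Both G93A libraries are below both WT libraries, and the ratio was 1.46-fold lower with vehicle (log2 ratio -0.55), just inside the 1.5-fold threshold, and 1.20-fold lower with SD (-0.26). Median-ratio scaling took the first of these past the threshold (log2 ratio -0.61). Hdac2 was thus listed at between 17.7 and 26.1 times the level of Hdac1. By the depth estimate Hdac1 had 128 and 118 fragments in WT (vehicle, SD) and 90.1 and 98.9 in G93A.

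Hdac1 spans positions 129516104 to 129542713 of chromosome 4, minus strand, and Hdac2 positions 36974544 to 37001889 of chromosome 10, plus strand, with 14 exons each. The Hdac1 level is uncertain, because 1152 of the 1986 windows of 53 bases in its transcript (58.0%) also occur in processed pseudogenes. For the coding part alone, 1106 of 1394 windows (79.3%) occur in Gm10093, which lies on chromosome 17 from 78491582 to 78493025 and is not listed in the table. The longest stretch shared without a difference has 450 bases. A read from the window below, in exon 9 of Hdac1, would match both loci equally well, while, in the GENCODE M21 transcripts, the stretch of the Hdac2 coding sequence with the fewest differences, also in exon 9, differs from it at 15 of 53 bases, shown in capitals.
Hdac1, chr4:129518839-129518891, minus strand, also in Gm10093: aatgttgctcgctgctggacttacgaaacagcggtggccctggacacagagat
Hdac2, chr10:36997069-36997121, plus strand: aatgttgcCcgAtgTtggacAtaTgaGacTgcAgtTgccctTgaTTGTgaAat
No window of Hdac2 occurs in another gene, so its value is not affected in this way. How the authors treated reads that fit several loci is not stated, so the part of that choice in the low level of Hdac1 was not tested.

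Phf21a and Hmg20b, whose products read unmethylated lysine 4 and bend DNA, were both higher in G93A. Phf21a had 4.33 RPKM in WT vehicle and 4.39 in WT + SD, against 5.11 in G93A vehicle and 5.37 in G93A + SD, with ratios of 1.18-fold with vehicle and 1.22-fold with SD. Its 3 transcript rows gave log2 ratios between 0.23 and 0.25 with vehicle and between 0.28 and 0.30 with SD. Hmg20b had 4.73 RPKM in WT vehicle and 4.65 in WT + SD, against 5.66 in G93A vehicle and 5.22 in G93A + SD. With vehicle it was 1.20-fold higher in G93A, and 1.12-fold higher with SD, and its 3 transcript rows gave log2 ratios between 0.24 and 0.27 with vehicle. Phf21a spans positions 92093117 to 92364666 of chromosome 2, plus strand, and Hmg20b positions 81346048 to 81350480 of chromosome 10, minus strand. For both genes the G93A libraries lie above both WT libraries, and 0 windows of any of their rows are shared with another gene.

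To compare G93A with WT under vehicle, the members were counted together. Only Rcor2 of the 9 passed 1.5-fold in that comparison, downwards, and no member passed upwards, where 4.68% of the 12987 names with a mean of at least 1 RPKM were at least 1.5-fold lower and 13.5% at least 1.5-fold higher. All 9 members have a mean of at least 1 RPKM. The median log2 ratio of the members was 0.013, against 0.051 over all these names, and 7 of 9 members had a log2 ratio within 0.32 of 0, as did 60.8% of the names. With SD in both genotypes no member passed 1.5-fold, against 8.12% of names lower and 16.3% higher. The median was then -0.072, against 0.048 over all names, and 8 of 9 members had a log2 ratio within 0.32 of 0, against 53.8% of the names, Kdm1b being the exception. Counting order alone, both G93A libraries were above both WT libraries for Kdm1a, Kdm1b, Phf21a and Hmg20b, 4 of 9 members, a share near the 43.7% of the names with that order. They were below for Rcor2, Rcor3 and Hdac1, 3 of 9 members, against 32.6% of the names, although Rcor3 had 4.05 RPKM in both vehicle libraries. After median-ratio scaling, Rcor1 and Hdac2 joined the latter, for 5 members against 39.7% of names, and the 4 higher members were the same, against 36.5% of names.

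**Figure D3:**
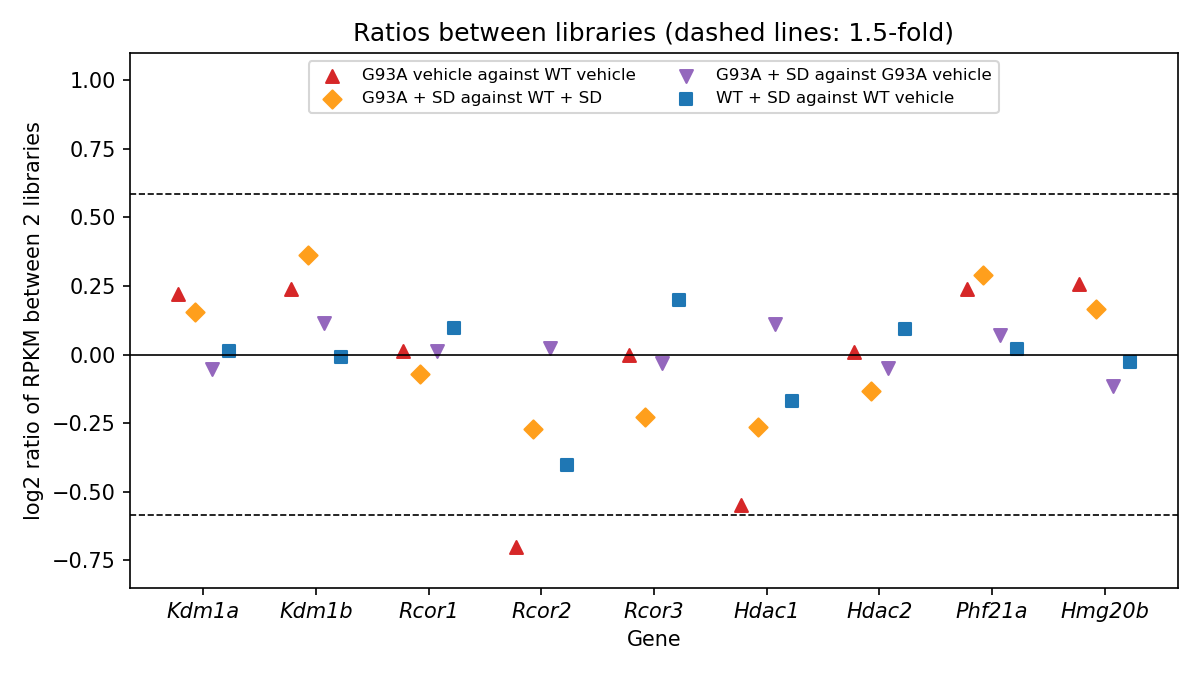
log2 ratio of RPKM between 2 libraries for each member in the 4 comparisons, 1 point per comparison, with dashed lines at 1.5-fold. Rcor2 in G93A vehicle against WT vehicle (-0.70) is the only point past a dashed line, and the SD ratios in G93A lie between -0.12 and 0.11.

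In G93A mice the SD and vehicle libraries were close to each other for all 9 members. The log2 ratios of G93A + SD against G93A vehicle ran from -0.12 for Hmg20b to 0.11 for Kdm1b and Hdac1, with a median of 0.013 against 0.0088 over all names. No member passed 1.5-fold, where 1.34% of names were higher and 1.04% lower, and all 9 had a log2 ratio within 0.32 of 0, as did 89.2% of the names. In WT mice the log2 ratios of SD against vehicle ran from -0.40 for Rcor2 to 0.20 for Rcor3, with a median of 0.013 against 0.015 over all names. Again no member passed 1.5-fold, against 0.909% of names higher and 1.36% lower, and 8 of 9 had a log2 ratio within 0.32 of 0, against 92.2% of the names. Only 2.69% of the names had a lower log2 ratio than Rcor2 in this comparison. The sum of the 9 members was 69.8 RPKM in WT vehicle and 71.9 in WT + SD, against 73.2 in G93A vehicle and 71.7 in G93A + SD.

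The genes around the complex were read from 7 lists with 61 genes, of which 60 (all but Setd1b) were matched in the table and 54 had a mean of at least 1 RPKM. Of these 54, 0 were at least 1.5-fold higher and 3 at least 1.5-fold lower in G93A vehicle against WT vehicle, where 13.5% and 4.68% of the names were. In G93A + SD against WT + SD 2 were higher and 4 lower, against 16.3% and 8.12%.

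Among 12 partners and recruiting factors of CoREST, Zfp217 and Snai1 were at least 1.5-fold higher in G93A with vehicle and with SD, and Insm1 was at least 1.5-fold lower with SD, all of them with a mean below 1 RPKM. Zfp217, a zinc finger protein that recruits LSD1 and CoREST, had 0.505 RPKM in WT vehicle and 0.701 in WT + SD, against 1.18 in G93A vehicle and 1.41 in G93A + SD. Snai1, the repressor that brings LSD1 to epithelial genes, had 0.0599, 0.0906, 0.207 and 0.243 RPKM in the same order, so that both genes were higher in both G93A libraries. For Snai1, WT + SD was also past 1.5-fold against WT vehicle (log2 ratio 0.60). Gfi1 was listed at 0 in WT vehicle and Gfi1b in all libraries but G93A + SD, with no value of either above 0.0183 RPKM, so no fold is given for them. Insm1 had 0.283, 0.464, 0.250 and 0.256 RPKM in the same order, so that WT + SD alone stood high and was also past 1.5-fold against WT vehicle. In this list the 7 members above a mean of 1 RPKM had a median log2 ratio of -0.088 with vehicle and -0.21 with SD. Rest, named for its role after its values were seen, had 1.28 RPKM in WT vehicle and 1.40 in WT + SD, against 1.66 in G93A vehicle and 1.93 in G93A + SD, and both G93A libraries were the higher.

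Of 12 neuronal genes that REST is known to repress outside neurons, 11 were lower in both G93A libraries than in both WT libraries, an order found for 32.6% of the names, while Stx1a overlapped. With vehicle, 12 of 12 had a lower value and 2 were at least 1.5-fold lower, against 4.68% of the names. With SD 11 of 12 were lower and 4 passed 1.5-fold, against 8.12% of the names. The median log2 ratio was -0.40 with vehicle and -0.48 with SD, where all names had 0.051 and 0.048. Snap25, a protein of synaptic vesicle fusion, had 1268 RPKM in WT vehicle and 1292 in WT + SD, against 782 in G93A vehicle and 661 in G93A + SD. Grin1, the common subunit of NMDA receptors, had 63.5, 58.6, 41.9 and 34.7 RPKM in the same order. Syp and Syn1, both of synaptic vesicles, were lower in both comparisons and passed 1.5-fold with SD. Syp had 274, 278, 207 and 175 RPKM and Syn1 had 90.3, 91.0, 66.6 and 58.8 RPKM in the same order, and the difference between the comparisons was not tested. The markers of all neurons, 1 of which (Snap25) is also in this list, were lower for 6 of 6 genes in both comparisons, with medians of -0.45 and -0.59. The part of that shift in the list was not tested.

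NuRD, another complex that holds HDAC1, HDAC2 and LSD1, had 11 listed subunits, of which 1 was at least 1.5-fold lower with vehicle (4.68% of the names) and 1 at least 1.5-fold higher with SD (16.3% of the names). Chd3, a remodelling ATPase, had 38.8 RPKM in WT vehicle and 36.3 in WT + SD, against 25.8 in G93A vehicle and 26.5 in G93A + SD. Mbd2, which binds methylated DNA, had 16.8, 17.5, 24.9 and 27.3 RPKM in the same order. In both genes the genotypes did not overlap, as for 6 subunits that were higher in both G93A libraries (43.7% of the names) and 3 that were lower (32.6%). Of the 6 other class I deacetylases and scaffolds, none passed 1.5-fold with vehicle (13.5% of the names higher, 4.68% lower) or with SD (16.3% and 8.12%). Hdac3 had 29.8, 29.7, 31.2 and 28.9 RPKM while Sin3b had 15.7, 15.1, 20.02 and 21.3 RPKM.

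Of the listed enzymes that remove or set methyl groups at the same lysine, none passed 1.5-fold in either comparison of the genotypes, where 13.5% of the names were higher and 4.68% lower with vehicle, and 16.3% and 8.12% with SD. The 5 other lysine 4 demethylases had a median log2 ratio of 0.060 with vehicle and -0.025 with SD, and Kdm5b had 7.35 RPKM in WT vehicle and 7.98 in WT + SD, against 7.58 in G93A vehicle and 7.78 in G93A + SD. Kdm5c had 6.40, 6.80, 7.38 and 7.74 RPKM, higher in both G93A libraries. The 9 matched methyltransferases and core subunits, out of 10, had medians of 0.014 and -0.040. Dpy30 had 16.7, 18.5, 19.8 and 18.0 RPKM and Ash2l had 14.0, 15.5, 15.4 and 15.2 RPKM in the same order, with overlapping genotypes in both cases.

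The other flavin amine oxidases, which share their fold and cofactor with LSD1, were higher in both G93A libraries than in both WT libraries for 5 of 5 genes, including 4 of 4 with a mean of at least 1 RPKM, an order found for 43.7% of the names above that mean. Of these 4, 0 were at least 1.5-fold higher with vehicle, where 13.5% of the names were, and 1 (Paox) with SD, against 16.3%. Il4i1, an amino acid oxidase of immune cells with a mean below 1 RPKM, passed 1.5-fold in both comparisons and had 0.528 RPKM in WT vehicle and 0.391 in WT + SD, against 1.19 in G93A vehicle and 1.02 in G93A + SD. Paox, which oxidizes acetylated polyamines, had 1.03, 0.907, 1.08 and 1.38 RPKM and passed 1.5-fold with SD, and the difference between the comparisons was not tested. The median log2 ratio of the 4 was 0.16 with vehicle and 0.45 with SD. Smox, which turns spermine into SD and was named for this role after its values were seen, had 19.1, 17.3, 21.3 and 22.8 RPKM. The microglial markers (10 of 10) and 4 of 6 astrocyte markers were higher in the same libraries, and their part in these values was not tested.

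**Figure D4:**
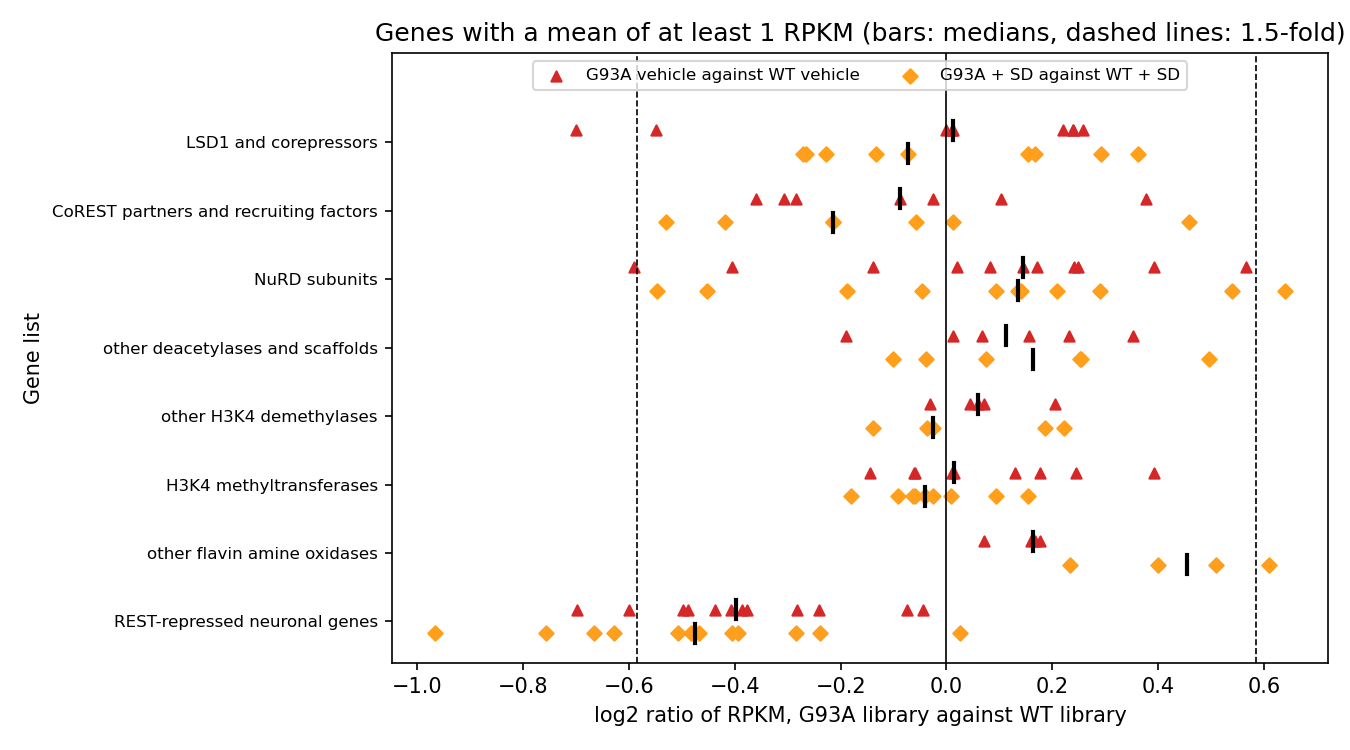
log2 ratio of RPKM in G93A against WT for the 9 members and for the listed genes above a mean of 1 RPKM in 7 lists, with vehicle (triangles) and with SD (diamonds), where black bars are medians and dashed lines mark 1.5-fold. The neuronal genes that REST represses lie lowest (medians -0.40 and -0.48), while the members and the enzymes of the lysine 4 mark lie around 0.

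Between SD and vehicle, 0 of the 54 listed genes above a mean of 1 RPKM passed 1.5-fold in either genotype. Few names did so at all, with 1.34% higher and 1.04% lower in G93A and 0.909% and 1.36% in WT, so this count does not set the lists apart.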

How the data were processed

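RNA was measured in 4 libraries, 1 per condition, and grouped by the sample titles. The authors deposited 1 table with 23750 transcript rows and 4 value columns, all used here. The authors do not name the unit of the deposited values, which was inferred to be RPKM. Per the methods, the authors aligned 53 bp reads with STAR to GRCm38 (mm10) and used HTSeq with Ensembl genes for counting, while the table lists RefSeq transcripts, and the step to these values is not stated. The deposited ratio columns were not used. The members and lists were chosen with earlier results of these data known.

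The rows of a name were averaged, and ratios were taken with no pseudocount and called at 1.5-fold. Shares of all names refer to the 12987 with a mean of at least 1 RPKM. Lists were matched by name, or for 4 partner genes by RefSeq accession or older symbol. The genes named follow a written rule (all members, list genes past 1.5-fold between genotypes, otherwise the 2 highest, the 3 names nearest to Kdm1a, and cell type markers). Exceptions are Rest, Smox and Stx1a, the unmatched Setd1b, and genes that overlap or share sequence with members, such as Luzp1 and Dek. Transcript lengths, exons and 53-base windows (either strand) came from GENCODE M21, with a length for 23026 rows. The commonest low value times length was read as 1 sequenced fragment, so the depth is an estimate and no interval was derived from it. Alternatives were other pseudocounts, thresholds and filters, median-ratio scaling and the highest row. Everything was run in Python 3.11.15 (pandas 2.3.3, numpy 2.4.6, plots with matplotlib 3.10.9).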

Additional observations from a re-analysis of the deposited data

Results flagged for a closer look

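Of the 9 members, 6 had SD ratios of opposite direction in G93A and WT mice, each from 1 library against 1, and none of these differences was tested. Of the 12987 names with a mean of at least 1 RPKM, 45.8% also had opposite directions, so the count alone does not set the members apart. The largest was that of Rcor2, with a log2 ratio of 0.025 in G93A and -0.40 in WT, a difference of 0.43. Hdac1 had 0.11 in G93A and -0.17 in WT (difference 0.28), and Rcor3 had -0.029 and 0.20 (difference 0.23). For Hdac2 the difference was 0.14, for Kdm1b 0.12 and for Kdm1a 0.067.

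The genotype ratio had opposite directions with vehicle and with SD for Rcor1 (0.013 and -0.072, difference 0.085) and for Hdac2 (0.0097 and -0.13, difference 0.14), again without a test. Such opposite directions were found for 15.1% of the names.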

How the results depend on the processing

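The log2 ratios of the 9 members in the 4 comparisons were recomputed 144 times in all, with pseudocounts of 0.1 and 1 RPKM, median-ratio scaling and the row with the highest mean, and 142 kept their side of the 1.5-fold threshold. The exceptions are Rcor2 with a pseudocount of 1 RPKM (-0.47) and Hdac1 with median-ratio scaling (-0.61), both in G93A vehicle against WT vehicle, and 2 ratios near 0 changed sign. In that comparison, where 1 member passed, the number was 0 with a pseudocount of 1 RPKM, 0 at 2-fold, 0 among names with a mean of at least 5 RPKM (a filter that removes Rcor2 itself and leaves 3 members), 2 at a lower threshold (log2 ratio 0.32) and 2 with median-ratio scaling. In G93A + SD against WT + SD and in WT + SD against WT vehicle it went from 0 to 1 at that lower threshold. With every matched gene of the lists counted, those at 0 in a library included, the genes past 1.5-fold went from 7 to 2 with a pseudocount of 1 RPKM and to 3 at a mean of at least 1 RPKM with vehicle, and from 11 to 5 and 6 with SD (among genes above 0 in every library, 6 with vehicle and 10 with SD), settings that were chosen for them after seeing the data. Members below WT in both G93A libraries went from 3 to 5 with median-ratio scaling, which was also added later. Over all names, G93A vehicle against WT vehicle gave 1751 higher and 608 lower, but 3782 and 1915 without the filter on low values, 902 and 336 at a mean of at least 5 RPKM, 1395 and 332 with a pseudocount of 1 RPKM, 3148 and 1948 at the lower threshold and 912 and 81 at 2-fold. For G93A + SD against WT + SD, 2113 and 1054 became 4341 and 2340, 1094 and 689, 1722 and 755, 3535 and 2460, and 1168 and 215 under the same settings. For SD in G93A, 174 and 135 became 1626 and 1366, 67 and 55, 91 and 66, 772 and 628, and 42 and 40, and for SD in WT, 118 and 176 became 1341 and 1597, 29 and 54, 38 and 66, 430 and 585, and 41 and 65. No replicate could be left out. No paired analysis was possible because each condition has 1 library and the labels give no replicate numbers. Among the members, depth limits Hdac1 most, with the fewest estimated fragments in every library. Rcor2 had the next fewest except in WT vehicle, where Hmg20b had 268 (mean of its rows) and Rcor2 271.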
